A study of Mus musculus with 6 samples.

Results

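Lysosomal genes were followed in endothelial cells sorted from mouse liver: the cathepsins, the subunits of the vacuolar ATPase and the lysosome-associated membrane proteins (LAMP). The members were every gene whose symbol was Cts plus 1 letter or began with Atp6v0, Atp6v1, Atp6ap1, Atp6ap2 or Lamp plus a digit. This gave 49 of the 26264 genes in the expression table. The PLX5622 libraries came from C57BL6 mice fed a diet with 1200 ppm PLX5622 for 1 month, and the control libraries from C57BL6 mice fed the control diet for the same time, with 3 biological replicates of each. PLX5622, given by mouth, inhibits CSF1R, the kinase receptor for colony stimulating factor 1 that macrophages of many tissues need to survive. In both groups, cells carrying CD31, the product of the endothelial gene Pecam1, were sorted from 1 liver lobe, and unstranded libraries were made from polyadenylated RNA. The labels do not say whether a library stands for 1 mouse or for pooled mice, and age and sex are not given there. The series asked whether the drug alters cholesterol metabolism in endothelial cells outside the brain, and lysosomes are where cholesterol esters that cells take up are cleaved.

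Lysosomes are acidic compartments in which cathepsins, mostly cysteine and aspartic proteases, degrade proteins brought in from outside or from within the cell. The vacuolar ATPase (V-ATPase) supplies the acid: its V1 sector hydrolyses ATP on the cytosolic face, its V0 sector carries protons through the membrane, and LAMP proteins line the inner face of that membrane. Sinusoidal endothelial cells of the liver are scavenger cells with a high load of endocytosed material. Many lysosomal genes carry a short element, called CLEAR, at which the transcription factors TFEB and TFE3 can bind.

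Promoter sequence is shown for the members that carry the core of that element. The members were chosen by symbol, but the element is known from lysosomal genes. A share above that of all genes is therefore not an independent finding. The RefSeq promoter table (build GRCm38.p6, windows from 250 bases before to 50 bases after the start) held 42 promoters of 37 of the 49 members. The letters TCACGTG, searched on both strands, were present in 7 of these 37 members, or 18.9%, against 4.29% of the 27025 genes in the table and 3.77% of its 32851 promoters. Capitals below mark TCACGTG or its reverse complement CACGTGA, and each line runs 5′ to 3′ on the strand of the gene.
Lamp1, chr8:13159084-13159167, plus strand: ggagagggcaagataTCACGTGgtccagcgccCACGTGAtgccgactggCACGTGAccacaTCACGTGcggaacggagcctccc
Ctsa, chr2:164833745-164833799, plus strand: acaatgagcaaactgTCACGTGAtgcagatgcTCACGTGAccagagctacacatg
Ctsd, chr7:142387904-142387941, minus strand: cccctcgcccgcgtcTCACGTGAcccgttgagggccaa
Atp6v0b, chr4:117887326-117887381, minus strand: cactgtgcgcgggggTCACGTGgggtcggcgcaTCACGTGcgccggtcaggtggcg
Atp6v0d1, chr8:105566046-105566083, minus strand: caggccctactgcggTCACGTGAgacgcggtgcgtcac
Atp6v0e, chr17:26676383-26676420, plus strand: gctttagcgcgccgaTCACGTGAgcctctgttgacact
Atp6v1a, chr16:44139369-44139406, minus strand: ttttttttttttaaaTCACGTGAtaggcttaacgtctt

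Lamp1 held 4 copies of the core within 62 bases before its start, and Ctsa and Atp6v0b held 2 each. The promoter of Ctsd held 2, of which the one nearer to the start is shown. The shorter palindrome CACGTG, which lies within TCACGTG, was present in 9 members (24.3%, against 8.09% of all genes in the table), the additional ones being Ctsl and Ctsf. A match describes letters in a window and is not evidence of a binding site, and its absence says only that those letters are not in that window.

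Of the 49 members, 34 averaged at least 1 TPM (a read share corrected for gene length and scaled to the same total in every library) over the 6 libraries and entered the test. A further 9 were detected below that level, and the other 6 were at 0 in every library. Read numbers recovered from the TPM values came to between 14517959 and 32732212 per library over 15097 genes. Pecam1 stood at 1853, 1557 and 1727 TPM in PLX5622 libraries 1 to 3, against 1981, 1509.5 and 1557 TPM in control libraries 1 to 3. Alb, the albumin gene of hepatocytes, stood at 552, 442 and 978 TPM in PLX5622 libraries, against 2368, 1135 and 929 TPM in control libraries. Control library 1 stood apart, with more Alb than Pecam1. Markers of other cell types were present as well. Summed stellate cell and fibroblast markers ranged from 88.6 to 140.2 TPM in PLX5622 libraries and from 64.7 to 142 TPM in control libraries. Summed monocyte and dendritic cell markers ranged from 255 to 286 TPM in PLX5622 libraries and from 263 to 318 TPM in control libraries. Only 4 of the 14 monocyte and dendritic cell markers averaged at least 1 TPM, so that sum rests on few genes. Cholangiocyte markers summed to between 2.77 and 54.8 TPM in PLX5622 libraries and between 14.3 and 81.8 TPM in control libraries. Neutrophil markers and lymphocyte markers each summed to at most 9.09 TPM in PLX5622 libraries and at most 18.5 TPM in control libraries, the B cell gene Cd79a reaching 9.35 TPM in control library 2. The single markers S100a8 of neutrophils, Cd3e of T cells and Col1a1 of fibroblasts were each below 4 TPM in all 6 libraries. All values below are in the order of replicates 1 to 3.

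The summed level of these lysosomal genes was close between diets, and no single member differed at an adjusted p under 0.05 in limma. The summed level of the members was 6336 ± 404 TPM in PLX5622 libraries and 6188 ± 369 TPM in control libraries (SD, n = 3 each), a share of 0.578% to 0.659% of all TPM in each library. Ctsd, Lamp1, Ctsb, Ctsl and Ctsh together took 50.7% to 53.6% of that sum. limma called 0 of the 34 tested members at an adjusted p under 0.05, against 0.0% of all 13739 genes tested, and the smallest adjusted p of any gene was 0.99998. An unadjusted p under 0.05 was found for 2 of 34 members, where the background was 3.34% of genes. They were Atp6v1g1 on the higher side, where the background was 1.64%, and Ctss on the lower side, where it was 1.7%. The log2 fold change of PLX5622 over control, taken on TPM + 1, was above 0 in 20 members and below 0 in 14, with a median of 0.03, while 46.2% of all genes were above 0 and their median was -0.02. In 29 of the 34 members the 95% interval of the log2 fold change lay between -1 and 1, as held for 81.6% of all genes. There was no overlap between diets in 4 of 34 members, where the background was 8.68% of genes. Atp6v1g1 and Atp6v0c were the higher ones, where the background was 4.18%, and Atp6v0a1 and Atp6v0a2 the lower ones, where it was 4.5%.

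**Figure D1:**
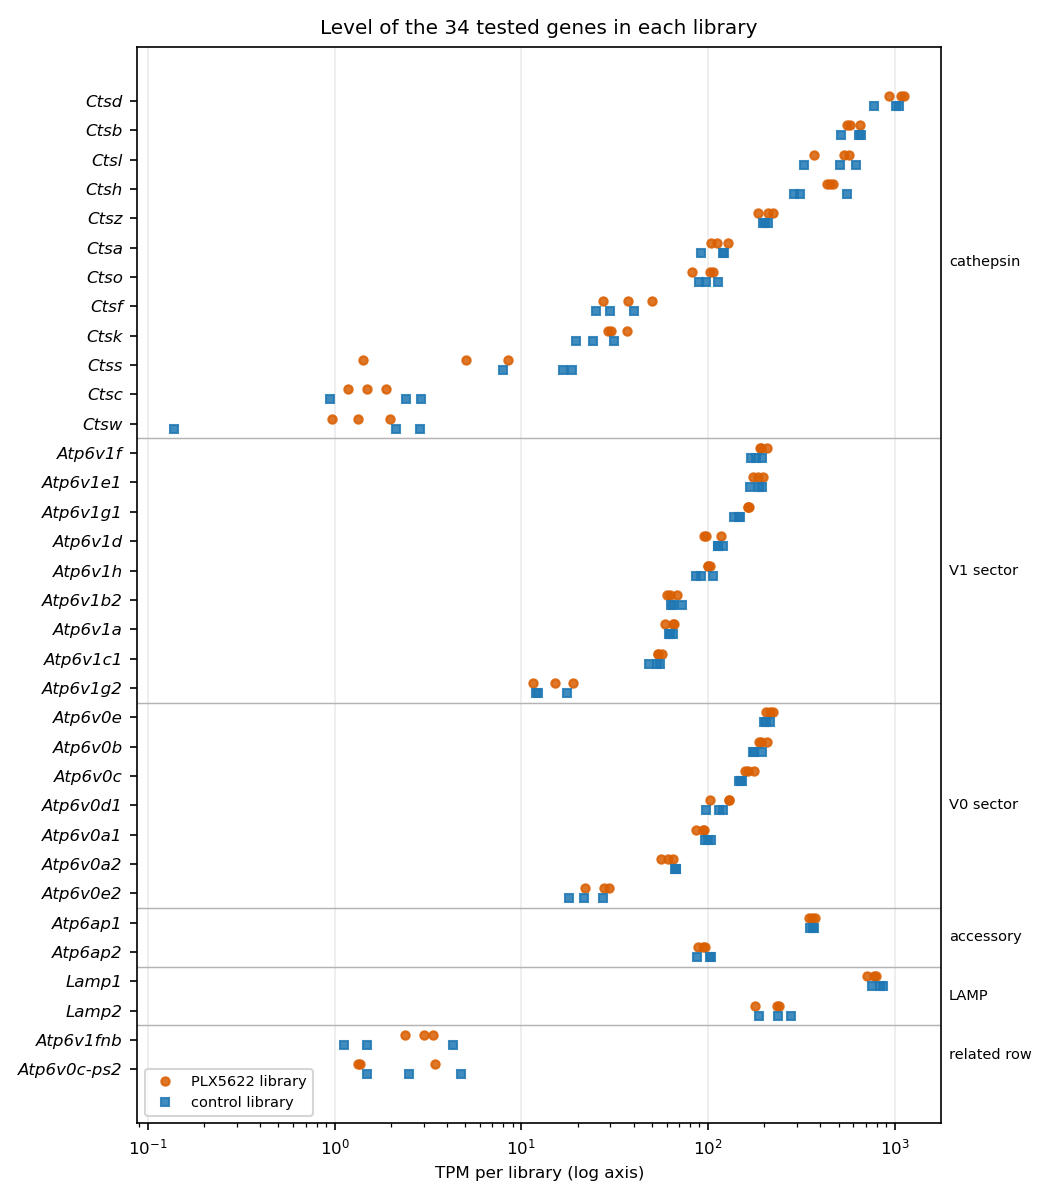
Level in TPM (log axis) of the 34 tested members in each of the 3 PLX5622 libraries (circles, upper row of each gene) and 3 control libraries (squares, lower row), grouped by role. Ctsd, Lamp1, Ctsb, Ctsl and Ctsh lead, most genes have overlapping circles and squares, and the widest spread is in Ctss, Ctsc, Ctsw and the 2 related rows at the bottom.

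Among the cathepsins, 12 of 18 were tested, 7 with a log2 fold change above 0 and 5 below, with a median of 0.03. Ctsd, an aspartic protease and the most abundant member, stood at 933, 1079.9 and 1128 TPM in PLX5622 libraries, against 773, 1055 and 1021 TPM in control libraries. The diets overlapped, and the log2 fold change was 0.15 (95% interval -0.19 to 0.48). Ctsb, a cysteine protease with both endopeptidase and carboxypeptidase activity, stood at 555, 649.5 and 577 TPM in PLX5622 libraries, against 513, 661 and 641 TPM in control libraries. Its libraries overlapped, with a log2 fold change of -0.02 (95% interval -0.31 to 0.27). Ctsl, a cysteine endopeptidase, stood at 369, 536 and 569.8 TPM in PLX5622 libraries, against 326, 508 and 619.9 TPM in control libraries. Library 1 was the lowest of its diet on both sides, and the spread within a diet exceeded the difference between diets.

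Ctsh, an aminopeptidase, differed more among control libraries than between diets. It stood at 465, 433 and 448 TPM in PLX5622 libraries, against 556, 289 and 310.2 TPM in control libraries, so the single high control library lay above all PLX5622 libraries and the others lay below them. The log2 fold change was 0.28 (95% interval -0.25 to 0.82). Without control replicate 1, the library with the most Alb, it was 0.58 with an unadjusted p of 0.000239 in limma, and the adjusted p was 0.405. Leaving out control replicate 2 gave 0.11, and leaving out control replicate 3 gave 0.16. The part of hepatocyte RNA in this value was not tested.

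Ctsz, Ctsa, Ctso and Ctsf also overlapped between diets. Ctsz, a carboxypeptidase, stood at 186, 223 and 209.6 TPM in PLX5622 libraries, against 198, 201 and 209.8 TPM in control libraries, a log2 fold change of 0.02 (95% interval -0.20 to 0.24). Ctsa, a serine carboxypeptidase that also protects other lysosomal enzymes from degradation, averaged 115 ± 11.7 TPM in PLX5622 libraries and 111 ± 17.1 TPM in control libraries (SD, n = 3 each). Ctso, a less studied cysteine protease, averaged 97.2 ± 13.1 TPM in PLX5622 libraries and 100.3 ± 11.9 TPM in control libraries. Ctsf, another cysteine protease, averaged 38.2 ± 11.2 TPM in PLX5622 libraries and 31.8 ± 7.77 TPM in control libraries, the most variable of these, with a coefficient of variation of 26.6% over the 6 libraries.

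Ctsk, a collagen-degrading protease best known from osteoclasts, stood at 30.3, 29.0 and 36.9 TPM in PLX5622 libraries, against 24.3, 19.7 and 31.4 TPM in control libraries. Control library 3 lay above PLX5622 libraries 1 and 2, so the diets overlapped. The log2 fold change was 0.36 (95% interval -0.08 to 0.79), with an unadjusted p of 0.0928 in limma. In voom on the recovered reads it was 0.47, with an unadjusted p of 0.0421. Without control replicate 3 it was 0.52 with an unadjusted p of 0.0210, and without control replicate 2 it was 0.20 with an unadjusted p of 0.295.

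Ctss, the cysteine protease that trims the invariant chain of major histocompatibility complex class II in antigen-presenting cells, had the largest log2 fold change of any tested member. It stood at 1.42, 8.44 and 5.02 TPM in PLX5622 libraries, against 18.7, 7.98 and 16.7 TPM in control libraries. These came from 15, 69 and 49 reads in PLX5622 libraries and from 247, 124 and 115 reads in control libraries. PLX5622 library 2 lay just above control library 2, and the other PLX5622 libraries lay below every control library. The means were 4.96 ± 3.51 TPM in PLX5622 libraries and 14.5 ± 5.71 TPM in control libraries (SD, n = 3 each). The log2 fold change was -1.50 (95% interval -2.71 to -0.30), with an unadjusted p of 0.0210 and an adjusted p of 0.99998 in limma. In the authors' deposited table it is -1.53 with a standard error of 0.55, an unadjusted p of 0.00569 and an adjusted p of 0.976. The value rested in part on PLX5622 library 1: without PLX5622 replicate 1 it was -0.96, with an unadjusted p of 0.0502. The unadjusted p was also above 0.05 without control replicate 1 (0.0652) and without control replicate 3 (0.0713), with log2 fold changes of -1.29 and -1.37.

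Most markers of Kupffer cells, the macrophages of the liver sinusoid, also stood lower in PLX5622 libraries. Of 18 Kupffer cell markers 16 were tested, and 15 of these had a log2 fold change below 0. Lower at an unadjusted p under 0.05 were 7 of the 16, where the background was 1.7%, and lower without overlap were 6, where it was 4.5%. None of the 18 was at 0 throughout. Some other marker lists lay the same way: 18 of 19 hepatocyte markers were below 0, with a median of -0.41, as were 13 of 16 sinusoidal endothelial markers, with a median of -0.11. Both tested lymphocyte markers were below 0 as well. Other lists lay mostly above 0: 3 of 4 tested monocyte and dendritic cell markers, 2 of 2 neutrophil markers, 6 of 11 stellate cell and fibroblast markers and 2 of 3 cholangiocyte markers. The 1 monocyte and dendritic cell marker below 0 stood at -1.70, without overlap and with an unadjusted p under 0.05 in limma. The median of the Kupffer cell markers was -0.81. Their summed level ranged from 124 to 218 TPM in PLX5622 libraries and from 224 to 345 TPM in control libraries. Clec4f, a lectin made by Kupffer cells, stood at 3.37, 10.1 and 10.2 TPM in PLX5622 libraries, against 22.0, 13.1 and 34.6 TPM in control libraries. PLX5622 library 1 was the lowest and control library 2 the lowest of the controls, as in Ctss. In other Kupffer cell markers PLX5622 library 1 was the highest of its diet: C1qb stood at 17.9, 15.5 and 12.4 TPM in PLX5622 libraries, against 25.6, 18.8 and 34.1 TPM in control libraries, and PLX5622 library 1 was likewise the highest of its diet for Cd68 and Marco. Csf1r, the receptor that the drug inhibits, stood at 1.26, 3.13 and 4.21 TPM in PLX5622 libraries, against 7.13, 5.99 and 8.68 TPM in control libraries. C1qa, a complement gene of macrophages, stood at 5.46, 13.1 and 7.86 TPM in PLX5622 libraries, against 19.1, 16.4 and 18.3 TPM in control libraries. Cd68, a lysosomal membrane protein of macrophages and related to LAMP, had a log2 fold change of -0.38 and overlapped between diets. The part of macrophage, endothelial, hepatocyte or other RNA in the Ctss value was not tested. For the macrophage markers, fewer macrophages and less RNA per macrophage cannot be told apart in sorted bulk cells.

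**Figure D2:**
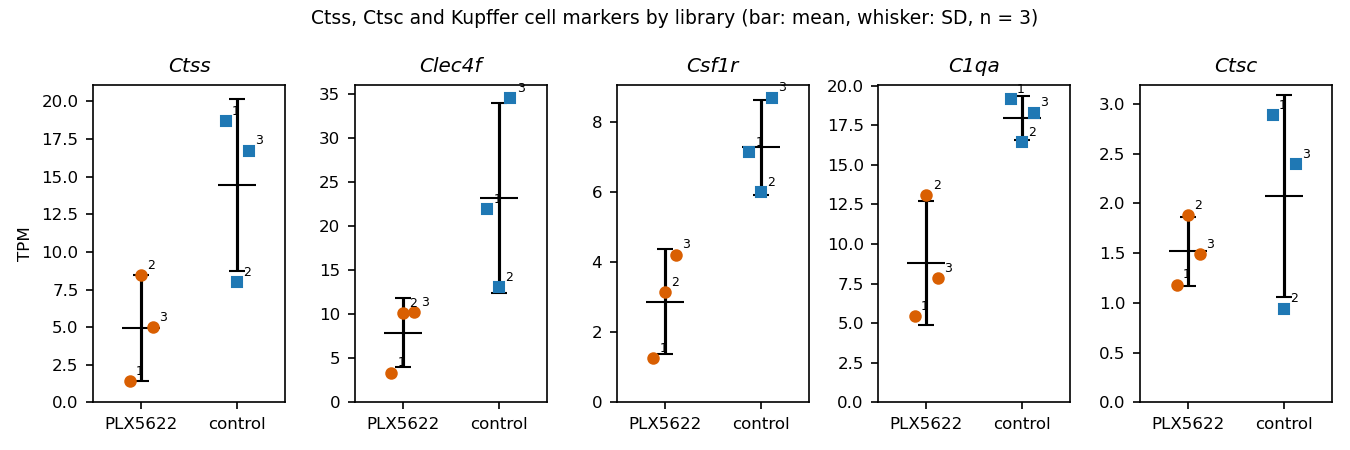
Level in TPM of Ctss, the Kupffer cell markers Clec4f, Csf1r and C1qa, and Ctsc in each library, numbered by replicate, with the mean (bar) and SD (whisker) of 3 libraries per diet. Ctss and these markers are lower in most PLX5622 libraries, with PLX5622 library 1 the lowest (other Kupffer cell markers, such as C1qb, are not lowest there), while Ctsc overlaps between diets.

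Cathepsins of other blood cells were scarce. Ctsc, a dipeptidyl peptidase that activates granule proteases of immune cells, stood at 1.18, 1.88 and 1.49 TPM in PLX5622 libraries, against 2.89, 0.942 and 2.40 TPM in control libraries. It rested on 102, 125 and 118 reads in PLX5622 libraries and on 310, 119 and 134 reads in control libraries. The gene length that the deposited TPM imply for Ctsc is 11061 bases, longer than the 5808 bases of its exons in GENCODE M21. Such differences are common, since the 2 lengths were equal in 552 of 14688 genes. The length does not enter the ratio of Ctsc between libraries. Control library 2 was the lowest and control library 1 the highest of all 6. Ctsw, of cytotoxic lymphocytes, stood at 1.34, 1.97 and 0.970 TPM in PLX5622 libraries, against 2.87, 2.13 and 0.138 TPM in control libraries, with a log2 fold change interval of -1.15 to 1.14. Ctsg, a serine protease of neutrophil granules, was at 0.129 TPM in PLX5622 library 1 and at 0 in the other 5 libraries. Ctse, an aspartic protease of gut and immune cells, reached 1.18 TPM in PLX5622 library 2, against at most 0.165 TPM in control libraries. Ctsj reached at most 0.446 TPM, and Ctsm, Ctsq and Ctsr, which in the mouse belong with Ctsj to a group of placental cathepsins, were at 0 in every library.

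**Figure D3:**
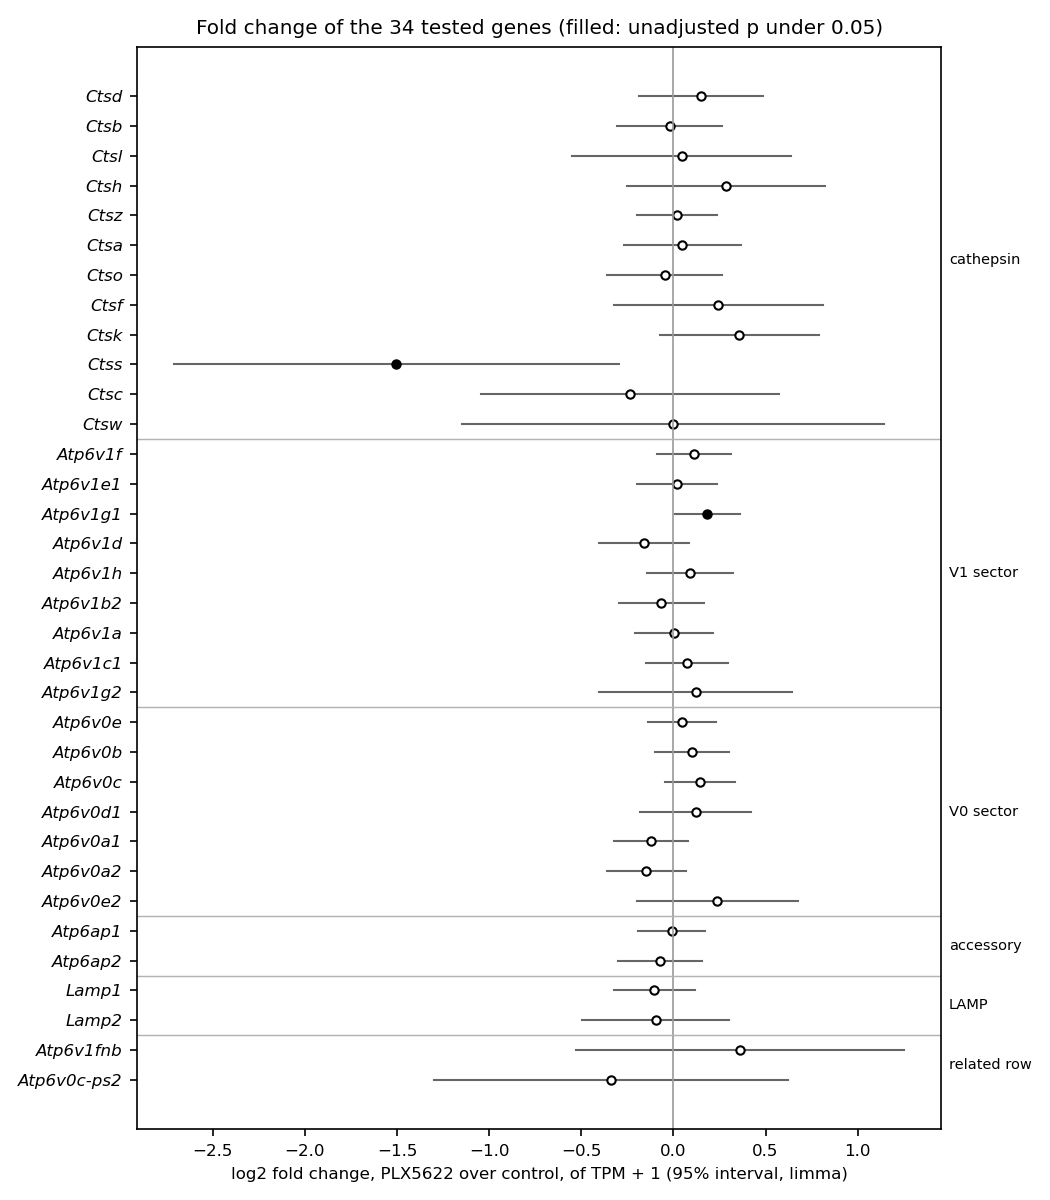
Log2 fold change of PLX5622 over control, on TPM + 1, with the 95% interval of limma for each of the 34 tested members, grouped by role. Filled points mark the 2 members with an unadjusted p under 0.05, Ctss at -1.50 and Atp6v1g1 at 0.18, and all 16 V-ATPase subunits have intervals between -1 and 1.

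Every subunit of the V-ATPase had at least 1 expressed gene. Of 22 subunit genes 16 were tested, and their summed level was 1766, 1859 and 1835 TPM in PLX5622 libraries, against 1737, 1747 and 1777 TPM in control libraries. The log2 fold change was above 0 in 12 and below 0 in 4, with a median of 0.08, while 46.2% of all genes were above 0. The 12 did not change in number under quantile normalization, median-of-ratios scaling or voom. Over all 17 alternatives, Atp6v1a changed sign in 4, Atp6v1e1 in 2 and Atp6v1g2 in 1. For the 16 subunits, every 95% interval lay between -1 and 1. The coefficient of variation over all 6 libraries had a median of 6.56% (range 3.89% to 11.8%) in the 14 subunits of at least 50 TPM. It was 11.7% (range 6.15% to 24.2%) in the 7 cathepsins of that level and 9.89% over all 3995 such genes.

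In the V1 sector 9 of 13 genes were tested, 7 above 0 and 2 below. Atp6v1a, the catalytic A subunit, stood at 65.5, 59.2 and 65.1 TPM in PLX5622 libraries, against 65.1, 61.9 and 62.3 TPM in control libraries, with a log2 fold change interval of -0.21 to 0.21. Atp6v1b2, the B subunit that forms the ring together with A, stood at 62.4, 60.3 and 68.0 TPM in PLX5622 libraries, against 63.0, 72.2 and 64.7 TPM in control libraries. Both ring subunits overlapped between diets, and their levels were close to each other. Atp6v1g1, a G subunit of the peripheral stalks, stood at 163, 165 and 163 TPM in PLX5622 libraries, against 148, 147 and 138 TPM in control libraries. All PLX5622 libraries lay above all control libraries. The log2 fold change was 0.18 (95% interval 0.01 to 0.36), with an unadjusted p of 0.0447 and an adjusted p of 0.99998 by limma. The authors' deposited table gives 0.20 with an unadjusted p of 0.136. Leaving out single libraries gave an unadjusted p between 0.0408 and 0.124 in limma, under 0.05 only without control replicate 1. The other tested V1 genes overlapped. Atp6v1e1, of the same stalks, averaged 185 ± 11.0 TPM in PLX5622 libraries and 183 ± 13.6 TPM in control libraries (SD, n = 3 each). Atp6v1f and Atp6v1d, of the central rotor, had log2 fold changes of 0.11 and -0.16. Atp6v1h and Atp6v1c1, which couple and regulate the sectors, had log2 fold changes of 0.09 and 0.07, and the G paralogue Atp6v1g2 one of 0.12 (95% interval -0.40 to 0.65).

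In the V0 sector 7 of 9 genes were tested, 5 above 0 and 2 below. Atp6v0c, of the proton-carrying ring, stood at 163, 176 and 158 TPM in PLX5622 libraries, against 146, 151 and 153 TPM in control libraries. All PLX5622 libraries were higher than all control libraries, with a log2 fold change of 0.14 (95% interval -0.05 to 0.33), although reads of this gene can be shared with its pseudogenes. Of the a subunits, which take part in proton passage and set where the pump is placed, Atp6v0a1 and Atp6v0a2 lay the other way, while Tcirg1, which encodes the a3 form and is not a member by name, had a log2 fold change of 0.09 and overlapped between diets. Atp6v0a1 stood at 94.2, 86.3 and 94.7 TPM in PLX5622 libraries, against 96.3, 99.7 and 103 TPM in control libraries, for a log2 fold change of -0.12 (95% interval -0.32 to 0.08). Atp6v0a2 stood at 60.8, 56.1 and 64.7 TPM in PLX5622 libraries, against 67.2, 66.4 and 67.4 TPM in control libraries, a log2 fold change of -0.15 (95% interval -0.36 to 0.07). In both, every PLX5622 library was lower than every control library, and the unadjusted p was 0.195 for Atp6v0a1 and 0.153 for Atp6v0a2 in limma. Atp6v0d1, which links the rotor to the ring, stood at 103, 129 and 130.0 TPM in PLX5622 libraries, against 97.2, 121 and 114 TPM in control libraries, with overlap. Atp6v0b, the other ring subunit, averaged 195 ± 9.85 TPM in PLX5622 libraries and 182 ± 10.8 TPM in control libraries (SD, n = 3 each). The small e subunits Atp6v0e and Atp6v0e2 had log2 fold changes of 0.05 and 0.24, the second with an interval of -0.20 to 0.67.

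Where a subunit has several genes, 1 of them took nearly all of the level for 4 subunits. Atp6v1b2 took at least 99.8% of the B level in every library, Atp6v0d1 at least 99.7% of the d level, and Atp6v1e1 all of the E level, since Atp6v1e2 was at 0. Atp6v1c1 took at least 98.5% of the C level. The paralogue Atp6v1c2, known from kidney and lung, was at 0, 0 and 0.349 TPM in PLX5622 libraries, against 0.581, 0.658 and 0.744 TPM in control libraries. The diets did not overlap, but the gene was below the limit of 1 TPM for the test. The background share without overlap covers tested genes only, so none can be set beside this gene. Some paralogues of specialized cells were all but absent: Atp6v0d2, of osteoclasts and some macrophages, was at 0.288 TPM in control library 1 and at 0 in the other 5 libraries. Atp6v1b1 and Atp6v0a4, of acid-secreting kidney cells, were detected in control library 3 alone, at 0.10 and 0.301 TPM, and Atp6v1g3 was at 0 throughout. The e and G subunits were mixed, with Atp6v0e at 87.3% to 92.2% of the e level and Atp6v1g1 at 88.7% to 93.4% of the G level. The a subunit was the most divided. Tcirg1 took 50.4%, 54.0% and 47.0% in PLX5622 libraries, against 41.3%, 51.8% and 46.7% in control libraries, with Atp6v0a1 and Atp6v0a2 making up nearly all the rest.

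The accessory proteins of the pump differed little between diets. Atp6ap1 (Ac45), which helps assemble and guide the V0 sector, stood at 346, 373 and 359 TPM in PLX5622 libraries, against 363, 369 and 353 TPM in control libraries. Its coefficient of variation over the 6 libraries was 2.76%, the lowest of the tested members, and its log2 fold change of -0.01 (95% interval -0.19 to 0.17) turned above 0 under quantile normalization, median-of-ratios scaling and voom. Atp6ap2, the prorenin receptor, stood at 93.4, 88.4 and 96.0 TPM in PLX5622 libraries, against 103, 87.7 and 102 TPM in control libraries. The diets overlapped in both genes. The rule also took in 3 rows that are not pump subunits: Atp6ap1l was at 0 in every library, while the pseudogene Atp6v0c-ps2 and Atp6v1fnb, a neighbour of Atp6v1f, averaged under 3 TPM on each diet, with intervals that reached past 0 on both sides.

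Of the LAMP genes, Lamp1 and Lamp2 were expressed. Lamp1 stood at 714, 777 and 797 TPM in PLX5622 libraries, against 759, 864 and 839 TPM in control libraries, a log2 fold change of -0.10 (95% interval -0.33 to 0.12). Lamp2, which also takes part in chaperone-mediated autophagy, stood at 179.6, 235 and 241 TPM in PLX5622 libraries, against 188, 238 and 279 TPM in control libraries, a log2 fold change of -0.10 (95% interval -0.49 to 0.30). In both genes library 1 was the lowest of its diet and the diets overlapped. Lamp3, of dendritic and lung epithelial cells, was at 0 in all PLX5622 libraries and at 0.0308, 0.0524 and 0 TPM in control libraries. Lamp5, a brain form, was likewise at 0 in all PLX5622 libraries and at most 0.190 TPM in control libraries.

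Replicate number went with the level of several members in both diets. Library 1 was the lowest of its diet on both sides in 13 of the 34 tested members, or 38.2%, where the background was 20.3% of all genes and 21.6% of genes of at least 50 TPM. They were Ctsa, Ctsb, Ctsd, Ctsl, Ctso, Ctsz, Atp6v1f, Atp6v0b, Atp6v0d1, Atp6v0e, Atp6v1fnb, Lamp1 and Lamp2. By group they made up 6 of 12 cathepsins, 2 of 2 LAMP genes and 4 of 16 V-ATPase subunits, the last being 25.0% and near the background. This pattern was chosen after the values were seen. It was shared by 10 of 16 sinusoidal endothelial markers, whose summed level was 12506, 15477 and 16066 TPM in PLX5622 libraries, against 12241, 18070.4 and 18787 TPM in control libraries. Stab2, a scavenger receptor of sinusoidal endothelium, stood at 279, 474 and 684 TPM in PLX5622 libraries, against 343, 1007 and 993 TPM in control libraries. Summed hepatocyte markers stood at 1908, 2056 and 3871 TPM in PLX5622 libraries, against 6235, 2993 and 2840.4 TPM in control libraries, and were thus not lowest in library 1 of the control diet. The part of sinusoidal endothelial RNA in the members' levels was not tested.

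**Figure D4:**
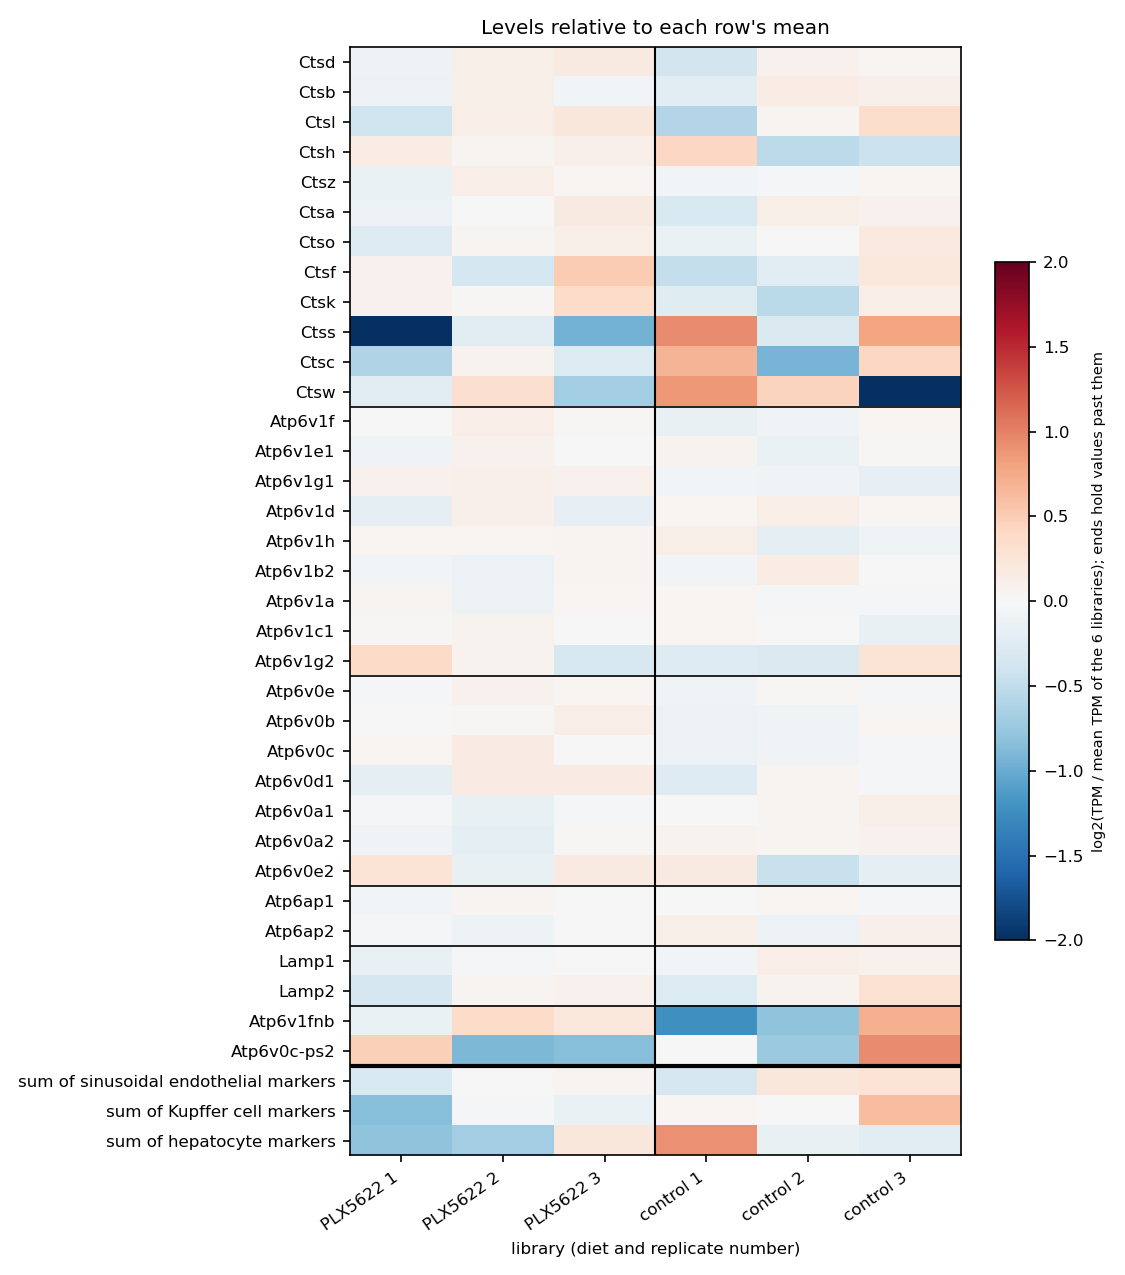
Level of the 34 tested members, and of 3 summed marker lists under the thick line, in each library as log2 of TPM over the mean of the 6 libraries (red above, blue below), with PLX5622 libraries left of the vertical line and control libraries right of it. Ctsl, Lamp2 and the sinusoidal endothelial sum are lowest in library 1 of each diet, the V-ATPase rows are pale throughout, and the darkest cells are Ctss in PLX5622 library 1 and Ctsw in control library 3.

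Within the V-ATPase, the fold change also went with the gene length that the deposited TPM imply, a feature noticed after the values were seen. The exons in GENCODE M21 give other lengths, such as 4602 bases for Atp6v1d and 9746 for Atp6v1h, against 1410 and 2063 implied by TPM. By GENCODE, only Atp6v1f, Atp6v1g1 and Atp6v0d1 are within 2000 bases and Atp6v1h is the longest. The split below therefore holds only for the implied lengths. Of the 10 tested subunits of up to 2000 bases, 9 had a log2 fold change above 0 (median 0.12), while 3 of the 6 longer ones did (median -0.03). The exception among the short ones, Atp6v1d with 1410 bases, had the lowest log2 fold change of the 16, at -0.16, and Atp6v1a, with 4200 bases, was at 0.00. The shortest, Atp6v1f with 635 bases, had 0.11, and the longest, Atp6v0a1 with 4754 and Atp6v0a2 with 5345 bases, had -0.12 and -0.15. Over all tested genes with a length, 51.3% of the 4136 up to 2000 bases and 43.7% of the 9334 longer ones were above 0. Spearman's rho between length and log2 fold change was -0.41 over the 16 subunits and -0.06 over 13470 genes. Genes share their libraries and are not independent, so these are descriptions.

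**Figure D5:**
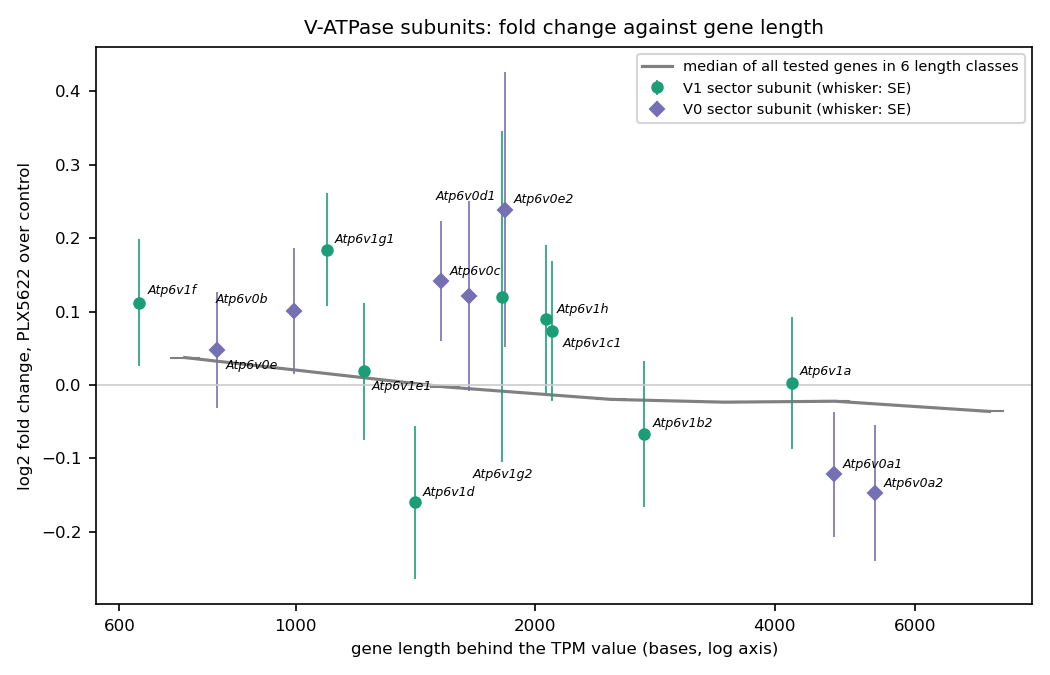
Log2 fold change of PLX5622 over control (with its SE) of the 16 tested V-ATPase subunits against the gene length behind the TPM values (bases, log axis), V1 sector as circles and V0 sector as diamonds. The line joins the medians of all tested genes in 6 length classes. By this length, 9 of 10 subunits of up to 2000 bases lie above 0, and the longest, Atp6v0a1 and Atp6v0a2, lie below it. Lengths from GENCODE M21 exons differ.

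Members with the promoter core had small differences between diets. The 7 averaged between 63.2 and 998 TPM, and their log2 fold changes lay between -0.10 and 0.15 with a median of 0.05. The 18 tested members whose promoter lacked it averaged between 1.80 and 488 TPM, and their log2 fold changes lay between -1.50 and 0.36 with a median of 0.02. Tested members with no promoter in the table, such as Ctsb (599 TPM) and Ctsh (417 TPM), are in neither group. Among tested genes with a promoter in the table, the core was present in 28.0% of 25 members and in 6.81% of 10667 genes. Tfeb and Tfe3, whose products bind the element and which were named after their values were seen, overlapped between diets. Tfeb stood at 25.2, 22.8 and 20.6 TPM in PLX5622 libraries, against 26.0, 20.5 and 23.9 TPM in control libraries, and the log2 fold change of Tfe3 was 0.08 (95% interval -0.20 to 0.35).

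The wider lysosome gave like counts. Over 6 further lists, 130 of the 148 genes listed were tested, 68 with a log2 fold change above 0 and 62 below, with a median of 0.01, and limma called 0 of them at an adjusted p under 0.05, with 1 higher and 2 lower at an unadjusted p under 0.05, where the background was 1.64% higher and 1.7% lower. Of 46 lysosomal hydrolases and activators 27 were above 0 and 19 below. Pld4, an exonuclease of phagocytes and B cells, stood at 0.260, 0.505 and 0.635 TPM in PLX5622 libraries, against 2.97, 2.88 and 5.10 TPM in control libraries, and its log2 fold change was -1.64 with a 95% interval of -2.37 to -0.91. Of 33 other lysosomal membrane proteins 20 were above 0 and 13 below. Cd63, a tetraspanin of late endosomes, stood at 93.3, 139 and 116 TPM in PLX5622 libraries, against 94.6, 88.3 and 82.0 TPM in control libraries, and the diets overlapped in the lowest PLX5622 library. Slc15a3, a peptide and histidine transporter, had a log2 fold change of -0.28, without overlap. Of 16 sorting genes 6 were above 0 and 10 below, those with the smallest p being the adaptor subunits Ap3b1 (-0.27) and Ap3d1 (-0.12). Of 18 genes of the MiT/TFE factors and the mTORC1 platform 6 were above 0 and 12 below. Those with the smallest p were Rraga (-0.15) and Fnip1 (0.25), while Mitf (0.30) and Flcn (0.30) lay further from 0. Of 5 cathepsin inhibitors 3 were above 0 and 2 below, those with the smallest p being Serpina3g (0.18) and Cstb (-0.09). Of 13 partners and assembly factors of the V-ATPase 6 were above 0 and 7 below. Those with the smallest p were Rogdi (-0.30) and Tmem9 (0.16), in a list that ranged from -0.30 to 0.60.

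The authors' deposited table holds the same 34 members and gives 0 of them an adjusted p under 0.05, where its background is 0.0729% of 15097 genes. Ctss is the 1 member with an unadjusted p under 0.05 there, where the background of the authors' deposited table is 3.18% of genes. Its log2 fold changes are above 0 in 21 members and below 0 in 13, with a median of 0.04 in the authors' deposited table, and their sign was that of limma in 33 of 34, the exception being Atp6ap1. By the RefSeq annotation, 10 of the 34 tested members are overlapped by another coding or long noncoding gene: Ctsa, Ctsb, Ctsw, Ctsz, Atp6v1b2, Atp6v1g1, Atp6v1g2, Atp6v0b, Atp6v1fnb and Lamp2. In unstranded libraries reads in such overlaps cannot be assigned to 1 gene with certainty, which applies to the difference in Atp6v1g1.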

How the data were processed

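RNA was measured in 6 libraries, 3 per diet. Tools listed in the submitters' processing notes are DESeq2 1.32.0, Subread 2.0.1 with featureCounts, STAR 2.7.10a and R 4.1.0, with build mm39. How genes were annotated, filtered and counted is not given in the sources used here. Expression was deposited by the authors as TPM for 26264 genes, 1 column per library. The authors' deposited comparison table of 15097 genes holds a mean normalized count (a signal over all libraries), a Wald statistic (a score), a log2 fold change with standard error, and the p-value before and after adjustment.

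Whole read numbers were recovered from the TPM steps and the deposited mean normalized counts. All values came out within 0.05 of a whole number. Gene lengths were taken from the ratio of these reads to TPM, on a scale set by GENCODE M21 exons. No libraries of a diet agreed within sampling noise (smallest chi-square per degree of freedom 16.0). Read numbers cover counting error only, since PCR copies are not independent molecules.

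The test was limma 3.58.1 (R 4.3.3), two-sided, on log2(TPM + 1) with a trend on intensity. It covered the 13739 genes that averaged 1 TPM or more and left out 12525, with Benjamini-Hochberg adjustment over all genes tested at 0.05. This scale understates the change of low genes. The fit and the recovery were tested on simulated data. There limma called 91.2% of 2-fold changes, together with 13.4 unchanged genes on average. The simulation gave every gene and library the same noise level, so it does not measure how often real changes in these libraries would be called. No list was tested as a set. Members and lists were chosen with earlier results of these data known. Every tested member is named. Values per library are given for members with an unadjusted p under 0.05 or no overlap between diets and for a fixed choice of main members, and in each other lysosomal list the genes with an unadjusted p under 0.05 or, where none, the 2 with the smallest p are named. The alternatives were other pseudocounts and filters, other scalings and variance models, library weights, a replicate block, voom on recovered reads and leaving out each library. RefSeq (GRCm38.p6) was used for promoters and for overlaps between genes, since no mm39 annotation was used here.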

Additional observations from a re-analysis of the deposited data

How the results depend on the processing

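Under 17 alternatives limma called 0 of the tested members, 0 genes of the other lysosomal lists and 0 genes in all, and the smallest adjusted p of a member was 0.405, for Ctsh without control replicate 1. The number of members at an unadjusted p under 0.05 ranged from 0, without PLX5622 replicate 1, to 3. Ctss was below 0 in all 17 and had an unadjusted p under 0.05 in 14. Leaving out single libraries moved its log2 fold change between -1.94 and -0.96. Atp6v1g1 was above 0 in all 17 and had an unadjusted p under 0.05 in 9. The sign was the same under every alternative in 23 of 34 members and changed under at least 1 in the other 11. Among these were Ctsa, Ctsb, Ctsl and Lamp2 and the V-ATPase subunits Atp6v1a, Atp6v1e1 and Atp6v1g2. The median of the members lay between -0.00143 and 0.08, and that of the other lists between -0.05 and 0.06, while the median of all genes moved by at most 0.02. The replicate numbers were not taken as pairs: deviations of same-numbered libraries correlated at 0.196, 0.136 and 0.0873, and each library correlated best with its own number, a hint from the data and not from the design. With the replicate block, limma called 0 genes, 821 genes had an unadjusted p under 0.05, and the unadjusted p was 0.0221 for Ctsk, 0.0366 for Ctss and 0.0431 for Atp6v1g1. Low read numbers limit the precision of Ctss, Ctsc and Ctsw.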
